A study of Mus musculus with 8 samples.

Results

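The 9 genes described here encode the ankyrins, spectrins and adhesion molecules that build the axon initial segment and the nodes of Ranvier. They were chosen by name, with earlier results of these data known, and are Ank1, Ank2, Ank3, Sptan1, Sptbn1, Sptbn4, Nfasc, Nrcam and Cntnap2. All 9 were found among the 24982 genes of the table and passed the filter on low values. RNA was sequenced from the amygdala of 8 C57BL/6 males aged 187 to 189 d, with 1 library per mouse and 4 mice per group. The control group drank plain drinking water, and the aspartame group drank water with 0.03% of the artificial sweetener aspartame. The deposited labels give 18 wk of exposure and the published methods give a shorter one, and the labels describe group housing where the methods describe pairs of the same sex. Which mice shared a cage is not given in either. Libraries are named by group and number, as water 1 and aspartame 1.

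The axon initial segment is the stretch of membrane near the cell body where action potentials start. There, ankyrin-G, the product of Ank3, binds sodium and potassium channels and the cell adhesion molecules neurofascin (Nfasc) and NrCAM (Nrcam), and is tied through beta-IV spectrin (Sptbn4) to a lattice of actin and alpha-II spectrin (Sptan1). Ankyrin-B (Ank2) and beta-II spectrin (Sptbn1) form the corresponding lattice along the rest of the axon, and Caspr2 (Cntnap2) holds Kv1 potassium channels beside the nodes. Neurofascin is also made by oligodendrocytes, and the table holds 1 value per gene, so its neuronal and glial isoforms, and the giant and short isoforms of Ank2 and Ank3, were not separated.

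Promoter windows of 300 bases (250 before and 50 after a RefSeq start site, GRCm38.p6) were given for 7 of the 9 genes, namely Ank2, Sptan1, Sptbn1, Sptbn4, Nfasc, Nrcam and Cntnap2. Of the windows given, the most upstream is shown for 3 genes. Sptbn4 and Nfasc were chosen as the members with the 2 largest differences described below, and Nrcam as the only one with a negative difference. Each is written 5′ to 3′ on the minus strand of chr7:27446540-27446839 for Sptbn4, the minus strand of chr1:132707277-132707576 for Nfasc and the plus strand of chr12:44328635-44328934 for Nrcam, with CG dinucleotides in capitals.
Sptbn4: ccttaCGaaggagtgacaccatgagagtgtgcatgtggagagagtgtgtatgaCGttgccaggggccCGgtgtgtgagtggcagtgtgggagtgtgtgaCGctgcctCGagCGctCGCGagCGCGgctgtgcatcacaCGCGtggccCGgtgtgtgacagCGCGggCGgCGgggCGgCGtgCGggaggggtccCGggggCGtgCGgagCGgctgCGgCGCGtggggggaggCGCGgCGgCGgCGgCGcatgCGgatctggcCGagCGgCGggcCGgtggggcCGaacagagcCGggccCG
Nfasc: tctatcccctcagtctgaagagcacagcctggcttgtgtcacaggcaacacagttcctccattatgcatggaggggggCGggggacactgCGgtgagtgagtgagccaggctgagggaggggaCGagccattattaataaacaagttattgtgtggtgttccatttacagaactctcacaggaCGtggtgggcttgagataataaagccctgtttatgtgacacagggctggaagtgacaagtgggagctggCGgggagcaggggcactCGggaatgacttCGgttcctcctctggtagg
Nrcam: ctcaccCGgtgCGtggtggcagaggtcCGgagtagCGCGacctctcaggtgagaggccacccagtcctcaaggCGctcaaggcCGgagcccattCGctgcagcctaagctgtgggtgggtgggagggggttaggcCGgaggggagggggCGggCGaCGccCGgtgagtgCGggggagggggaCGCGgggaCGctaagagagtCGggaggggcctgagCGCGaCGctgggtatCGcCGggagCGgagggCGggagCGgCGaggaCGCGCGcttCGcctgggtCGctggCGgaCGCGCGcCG
The Sptbn4 window held 41 CG dinucleotides and the Nrcam window 37, whereas the Nfasc window held 7, which is the median over all 32851 windows. The Sptbn4 and Nrcam windows lie near the annotated 5′ ends of their genes (27447686 and 44328885). The Nfasc window is at an internal start, since the annotated gene begins upstream at 132741797, and no window at that end was given. A CG dinucleotide was present in 94.6% of all windows, 3.46% had as many as Sptbn4, 5.58% as many as Nrcam and 52.1% as many as Nfasc. Over all 16 windows of the 7 genes the number of CG dinucleotides ranged from 1 to 41. A CG-rich start was thus present in a member that differed and in one that did not pass the test, and these letters are a description of the windows only.

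The values are log2 values of scaled read counts (taken as regularized log2, or rlog, from the name of the table), in which weakly counted genes are drawn toward their mean. Per kilobase of the longest annotated transcript, the levels in the plain water group spanned from 9.06 ± 0.03 (SD, n = 4) for Sptbn1 to 4.18 ± 0.12 for Ank1 on the log2 scale. The order between them was Sptan1 (8.85 ± 0.04), Ank2 (8.35 ± 0.07), Nrcam (8.10 ± 0.08), Ank3 (6.93 ± 0.07), Nfasc (6.38 ± 0.05), Cntnap2 (5.48 ± 0.04) and Sptbn4 (5.17 ± 0.16), and the ranges of all 8 pairs of neighbors were separate over the 4 mice. The lattice components of the general axon, beta-II and alpha-II spectrin and ankyrin-B, were thus the 3 highest, and the spectrin of the initial segment, Sptbn4, and the ankyrin first described in red cells, Ank1, the lowest. The order depends on the transcript taken. With the median basic transcript, which is 2594.5 bases for Ank2 against 14305 for its longest, Ank2 ranked first at 10.8 and the other 8 members kept their order.

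Principal component analysis of the 500 most variable genes set aspartame 2 apart from its group: on the first component (66.4% of the variance) it lay at 13.2, the other 3 aspartame libraries at -13.1 to -3.05 and the 4 plain water libraries at -1.18 to 5.17. The study left out 1 aspartame library on such an analysis and does not name it in its text. It was taken here to be aspartame 2, and each difference is given without it (4 against 3 libraries) and over all 8 as labeled. The mean correlation with the other 7 libraries was lowest in aspartame 2 (0.985) and nearly as low in aspartame 4 (0.986), against up to 0.993 elsewhere. Since the left-out library lies opposite to the others on these same data, p-values without it do not carry the spread that it adds.

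Without aspartame 2, Sptbn4, Nfasc and Ank1 rose with aspartame, and the other 6 members did not pass the test. These 3 of 9 members compare with 8.81% of the 12870 genes tested that were called at an adjusted p under 0.05, or 6.10% called higher. At an unadjusted p under 0.05 there were 6 of 9 members against 27.1% of all genes, and the 2 groups did not overlap in 6 of 9 members against 23.0%. The median difference of the 9 members was 0.19 on the log2 scale, against -0.004 over all genes tested. The members and the related lists below were chosen with earlier results of these data known. Their shares and medians beside those of all genes are therefore a description and not independent evidence. Over all 8 libraries none of the 9 members was called by limma, and 0.00% of the 12861 genes tested were called. Only Ank3 then had an unadjusted p under 0.05 and separate groups, 1 of 9 members in each case, against 4.30% and 3.37% of all genes. The median difference of the members over all 8 libraries was 0.13, against 0.003 over all genes.

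**Figure D1:**
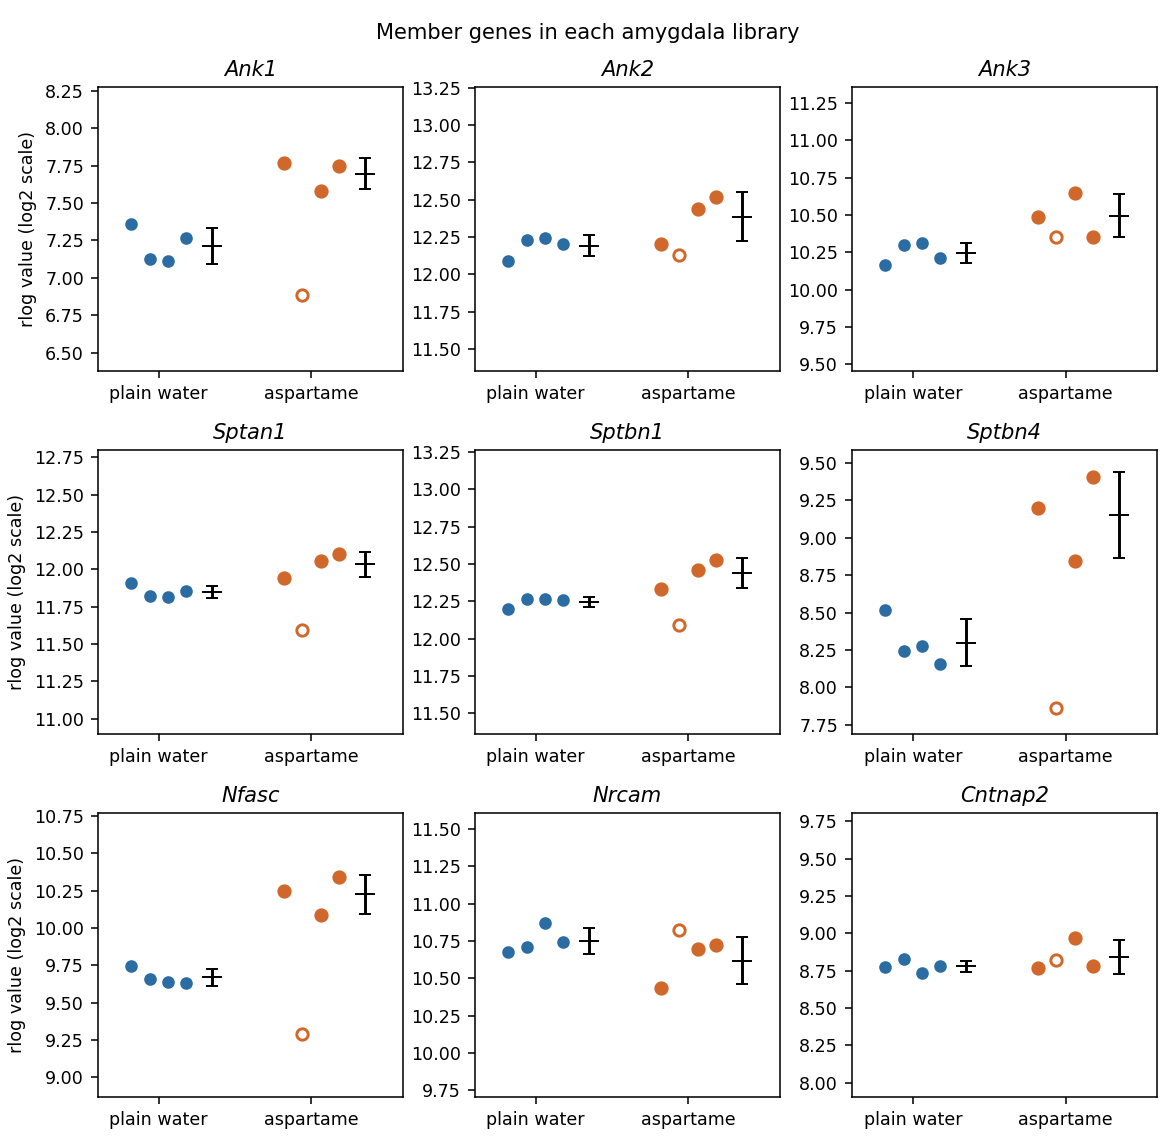
Rlog values (log2 scale) of the 9 members in each library, with plain water in blue, aspartame in orange and aspartame 2 as an open circle; every panel spans the same number of log2 units, and the bars are the mean ± SD of the 4 plain water libraries and of aspartame 1, 3 and 4. In Sptbn4, Nfasc and Ank1 the 3 filled orange points lie above all plain water points and the open one below them.

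Sptbn4 encodes beta-IV spectrin, which anchors ankyrin-G and its channels to actin at the initial segment and nodes (GRCm38 chr7:27356383-27447686, minus strand). Its rlog values were 8.52, 8.25, 8.28 and 8.15 in water 1 to 4 and 9.20, 7.86, 8.85 and 9.41 in aspartame 1 to 4. Aspartame 1, 3 and 4 were above every plain water library, and aspartame 2 was below every one. Without aspartame 2 the difference was 0.85 ± 0.13 (SE, limma adjusted p = 0.00921), or 1.81-fold on this scale. Over all 8 libraries it was 0.53 ± 0.27 (limma adjusted p = 0.903), with a 95% interval from -0.06 to 1.12. By its p without aspartame 2, Sptbn4 was at rank 33 of the 12870 genes tested.

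Nfasc encodes neurofascin, an L1-family adhesion molecule that sits on the initial segment in neurons and in the paranodal loops of oligodendrocytes (chr1:132564690-132741797, minus strand). The values were 9.75, 9.66, 9.64 and 9.63 in water 1 to 4 and 10.25, 9.29, 10.09 and 10.34 in aspartame 1 to 4. As in Sptbn4, aspartame 2 was the lowest of the 8 libraries and the other 3 aspartame libraries the highest. The difference was 0.56 ± 0.08 without aspartame 2 (limma adjusted p = 0.00881, 1.47-fold, rank 22 of the 12870 genes) and 0.32 ± 0.19 over all 8 (limma adjusted p = 0.903).

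Ank1 encodes ankyrin-R, which binds spectrin in red cells and is also made by some neurons (chr8:22974844-23150497, plus strand). It had 7.36, 7.12, 7.11 and 7.27 in water 1 to 4 and 7.77, 6.88, 7.58 and 7.75 in aspartame 1 to 4. The pattern over libraries was again the one of Nfasc, with aspartame 2 lowest. The difference was 0.48 ± 0.09 without aspartame 2 (limma adjusted p = 0.0136, 1.40-fold) and 0.28 ± 0.18 over all 8 (limma adjusted p = 0.903). The call was lost without water 3 (0.45, limma adjusted p = 0.0547) and without aspartame 4 (0.46, limma adjusted p = 0.05002). The 4 hemoglobin genes listed were constant at 0 in all 8 libraries, so their values hold no information on blood in the samples. The mean of the 6 red cell markers, which includes these 4, spanned 0.30 to 0.35 in both groups. It cannot show whether the groups differed in blood.

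Ank3, the organizer of the initial segment, was the member whose higher values extended to aspartame 2 (chr10:69398773-70027438, plus strand). It had 10.16, 10.30, 10.31 and 10.21 in water 1 to 4 and 10.49, 10.35, 10.65 and 10.35 in aspartame 1 to 4. All 4 aspartame libraries were above all 4 plain water libraries, by a narrow margin in aspartame 2 and 4. The difference did not pass the test in either comparison, at 0.25 ± 0.08 without aspartame 2 (limma adjusted p = 0.0871) and 0.21 ± 0.09 over all 8 (limma unadjusted p = 0.0391, adjusted p = 0.903). The value moved little between the comparisons, unlike those of Sptbn4, Nfasc and Ank1.

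Ank2, encoding ankyrin-B of the distal axon, had 12.09, 12.23, 12.25 and 12.21 in plain water and 12.20, 12.13, 12.44 and 12.52 in aspartame 1 to 4 (chr3:126921612-127499350, minus strand). Aspartame 1 lay within the plain water range, and only aspartame 3 and 4 were above it. The difference was 0.19 ± 0.09 without aspartame 2 (limma adjusted p = 0.200) and 0.13 ± 0.10 over all 8 (limma adjusted p = 0.903).

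Sptbn1 and Sptan1, the beta-II and alpha-II spectrins that pair to form tetramers, lay close together. Sptbn1 had 12.20, 12.27, 12.27 and 12.26 in plain water and 12.33, 12.09, 12.46 and 12.53 in aspartame 1 to 4 (chr11:30099395-30268175, minus strand). Sptan1 had 11.91, 11.82, 11.82 and 11.85 in plain water and 11.94, 11.59, 12.06 and 12.10 in aspartame 1 to 4 (chr2:29965560-30031451, plus strand). In both genes aspartame 2 was the lowest of the 8 libraries and the other 3 aspartame libraries were the highest, by a small margin. The differences without aspartame 2 were 0.19 ± 0.08 for Sptbn1 and 0.18 ± 0.08 for Sptan1, each with a limma adjusted p of 0.149. Over all 8 libraries they were 0.10 ± 0.10 (limma adjusted p = 0.913) and 0.07 ± 0.11 (limma adjusted p = 0.936). With the libraries quantile-normalized, the Sptbn1 difference without aspartame 2 turned to -0.052 (limma adjusted p = 0.591).

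Nrcam, encoding the L1-family partner of neurofascin at the initial segment, was the one member with a negative difference (chr12:44328885-44601964, plus strand). It had 10.68, 10.71, 10.87 and 10.75 in plain water and 10.44, 10.83, 10.70 and 10.72 in aspartame 1 to 4, and the groups overlapped. The difference was -0.13 ± 0.09 without aspartame 2 (limma adjusted p = 0.371) and -0.08 ± 0.10 over all 8 (limma adjusted p = 0.918). With quantile normalization it passed the test without aspartame 2, at -0.26 (limma adjusted p = 0.0401).

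Cntnap2, encoding Caspr2 of the juxtaparanode, varied least of the 9, with 8.77, 8.83, 8.73 and 8.78 in plain water and 8.77, 8.82, 8.97 and 8.78 in aspartame 1 to 4 (chr6:45059357-47304213, plus strand). Only aspartame 3 was above the plain water range. The difference was 0.06 ± 0.08 without aspartame 2 (limma adjusted p = 0.637), with a 95% interval from -0.10 to 0.23, and 0.06 ± 0.08 over all 8 (limma adjusted p = 0.927). Without aspartame 3 as well it was -0.0021.

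**Figure D2:**
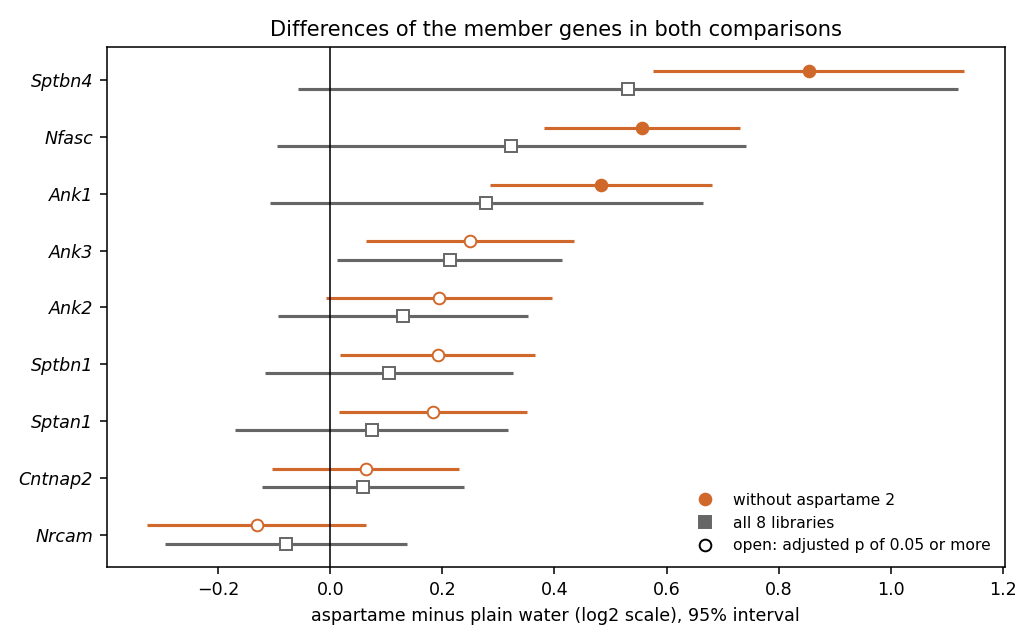
Difference between the aspartame and plain water groups for each member (x axis, log2 scale) with its 95% interval from limma, without aspartame 2 (orange circles) and over all 8 libraries (gray squares); filled symbols have an adjusted p under 0.05. Sptbn4, Nfasc and Ank1 are filled without aspartame 2 at 0.85, 0.56 and 0.48, and no symbol is filled over all 8.

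Partner genes were also compared within each library, which takes out only a factor that acts alike on both genes of a pair. A trend with transcript GC content, described below, need not cancel where the genes differ in it. The median GC content was 63.3% for Sptbn4 against 48.8% for Sptbn1, and 56.2% for Nfasc against 46.9% for Nrcam. It was 50.8% for Ank3 against 48.7% for Ank2. The part of GC content in the shifts was not tested. For 3 pairs, the difference of the 2 log2 values in each library was compared between groups by a two-sided exact permutation test, with p-values adjusted over the 3 pairs. Sptbn4 minus Sptbn1 was -3.95 ± 0.19 (SD, n = 4) in plain water and -3.29 ± 0.28 (n = 3) in aspartame 1, 3 and 4, a shift of 0.66 toward the beta-IV form (exact p = 0.0286, adjusted p = 0.0429). Nfasc minus Nrcam was -1.08 ± 0.13 in plain water and -0.39 ± 0.21 in aspartame 1, 3 and 4, a shift of 0.69 toward neurofascin (exact p = 0.0286, adjusted p = 0.0429). The p of 0.0286 is the smallest that 4 against 3 libraries allow. In aspartame 2 the same quantities were -4.23 and -1.54, below all 4 plain water libraries, and over all 8 libraries the shifts were 0.43 (exact p = 0.229, adjusted p = 0.343) and 0.40 (exact p = 0.200, adjusted p = 0.343).

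Ank3 minus Ank2, the ankyrin of the initial segment against that of the distal axon, gave a different order of libraries. It was -1.92, -1.93, -1.94 and -1.99 in water 1 to 4 and -1.72, -1.78, -1.79 and -2.16 in aspartame 1 to 4. Aspartame 1, 2 and 3 were above all plain water libraries and aspartame 4 was below them. The shift was 0.05 without aspartame 2 (exact p = 0.714, adjusted p = 0.714) and 0.08 over all 8 (exact p = 0.571, adjusted p = 0.571), and without aspartame 1 as well as aspartame 2 it was -0.032.

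**Figure D3:**
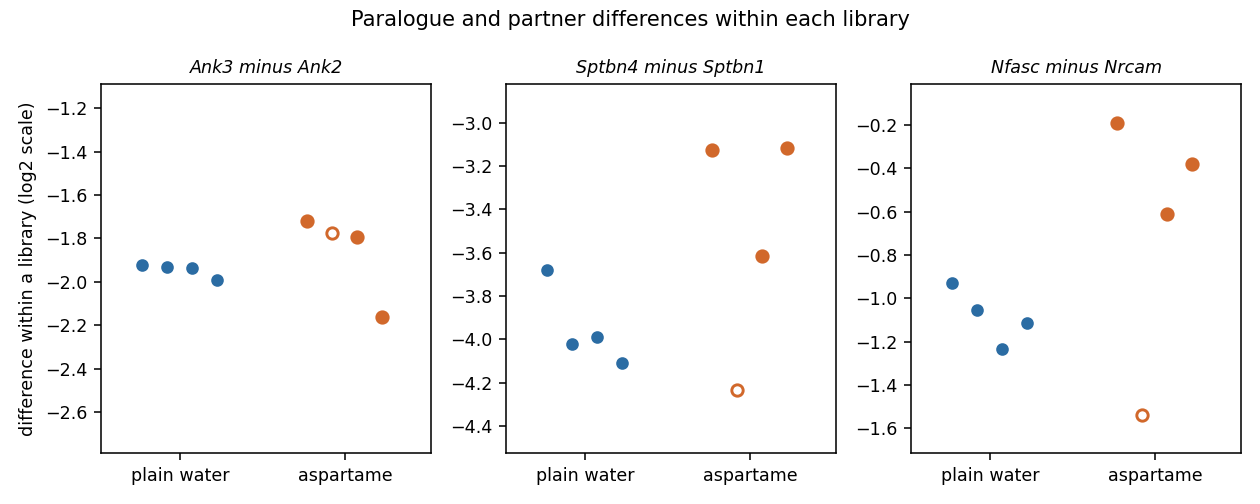
Difference of the rlog values of 2 genes within each library (y axis, log2 scale), with plain water in blue, aspartame in orange and aspartame 2 as an open circle; the 3 panels span the same number of log2 units. For Sptbn4 minus Sptbn1 and Nfasc minus Nrcam the filled orange points lie above all blue ones and aspartame 2 below them, whereas for Ank3 minus Ank2 aspartame 4 is the low one, at -2.16.

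The differences of the members went with the GC content of their transcripts. The median GC content of the basic transcripts was 63.3% for Sptbn4, 56.4% for Ank1 and 56.2% for Nfasc, and between 44.5% for Cntnap2 and 52.0% for Sptan1 for the other 6. Across the 9 members, which share the same libraries, Spearman's rho between GC content and the difference was 0.85 without aspartame 2, and -0.80 for aspartame 2 minus the plain water mean. Over the 12787 tested genes with an annotation the values were 0.54 and -0.77. In the decile of genes highest in GC the median difference was 0.25 for aspartame 1, 3 and 4 and -0.28 for aspartame 2, and in the lowest decile it was -0.10 and 0.29. With a smooth trend in GC content and transcript length removed within each library, the differences without aspartame 2 were 0.45 for Sptbn4 and 0.31 for Nfasc, both with a limma adjusted p of 0.0293, and 0.18 for Ank1 (limma adjusted p = 0.179). Ank3, near the middle in GC content at 50.8%, had 0.19 with the trend removed (limma adjusted p = 0.185). The number of calls over all genes without aspartame 2 fell from 1134 to 249 with this removal. Over all 8 libraries with the trend removed, the difference was 0.30 for Sptbn4 (limma adjusted p = 0.635) and 0.20 for Nfasc (limma adjusted p = 0.641). It was 0.11 for Ank1 (limma adjusted p = 0.709) and 0.17 for Ank3 (limma adjusted p = 0.635).

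**Figure D4:**
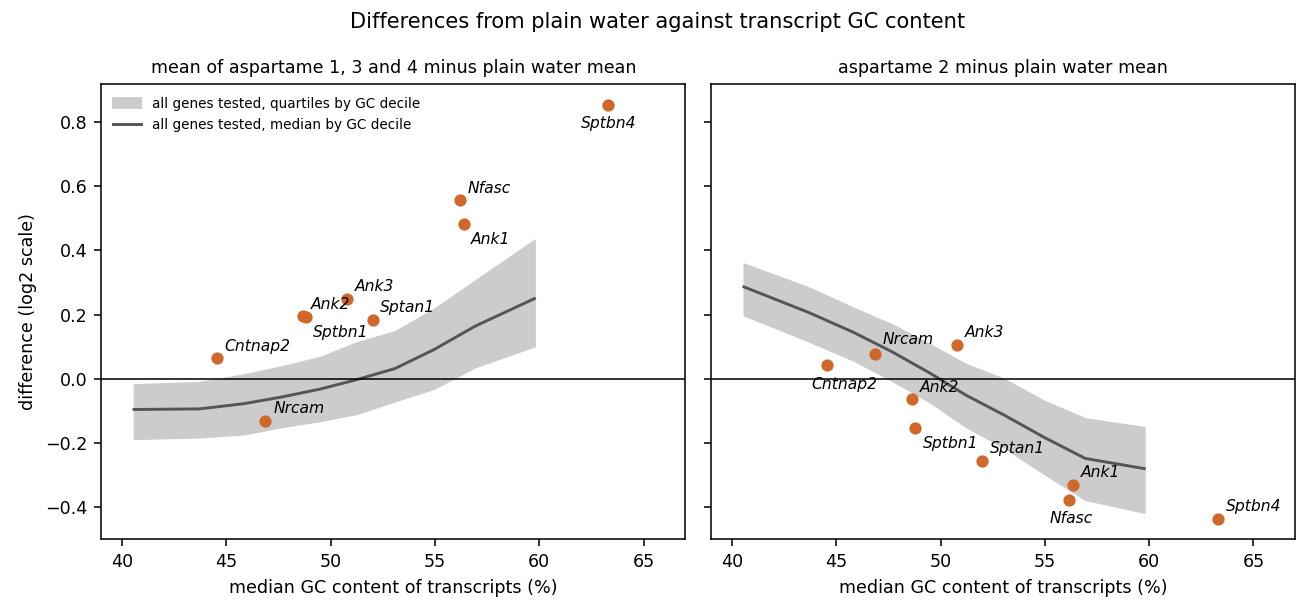
Difference from the plain water mean (y axis, log2 scale) against the median GC content of each gene's transcripts (x axis, percent), for the mean of aspartame 1, 3 and 4 (left) and for aspartame 2 (right), with the members in orange and the median and quartiles of all tested genes per decile of GC content in gray. The member with the highest GC content, Sptbn4 at 63.3%, is the highest on the left at 0.85 and the lowest on the right at -0.44.

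Among 31 other genes of the initial segment (channels, their subunits and microtubule proteins), 29 were tested, of which 5 rose and none fell without aspartame 2. This is 17.2% of the list, against 8.81% called and 6.10% called higher among all genes tested, and the median difference was 0.08, against -0.004. Scn8a, the Nav1.6 sodium channel that ankyrin-G holds at the initial segment, had 10.39 to 10.51 in plain water and 10.59, 10.42, 10.83 and 10.91 in aspartame 1 to 4, a difference of 0.33 ± 0.09 (limma adjusted p = 0.0406). Scn2b, a sodium channel beta subunit, rose by 0.29 ± 0.07 (limma adjusted p = 0.0333). Kcnab2, the Kv1 channel beta subunit, rose by 0.44 ± 0.11 (limma adjusted p = 0.0353), and the microtubule end-binding gene Mapre3 by 0.50 ± 0.13 (limma adjusted p = 0.0379). The fifth was Mtcl1, a microtubule crosslinker (0.46 ± 0.13, limma adjusted p = 0.0479), which the naming rule does not take. The partners of ankyrin-G did not move as 1 group, since the other channel genes Scn1a (0.12), Scn2a (-0.01) and Kcnq3 (0.08) were not called. This list had no call left without water 2, without water 3 or without water 4, none with the GC and length trend removed, and 1 without aspartame 4.

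Of 16 other genes of the spectrin membrane skeleton, 13 were tested, and 3 rose and none fell (23.1%, against 8.81% called and 6.10% called higher among all genes), with a median difference of 0.16. Sptb, encoding beta-I spectrin, had 8.90, 8.74, 8.73 and 8.88 in plain water and 9.30, 8.39, 9.39 and 9.33 in aspartame 1 to 4, a difference of 0.53 ± 0.08 (limma adjusted p = 0.00881). Epb41l1, the neuronal protein 4.1N, rose by 0.35 ± 0.09 (limma adjusted p = 0.0357). The adducins, which cap actin in the axonal lattice, were not called, with 0.02 for Add1, 0.10 for Add2 and 0.02 for Add3. The list had 1 call when water 2, water 3, water 4 or aspartame 4 was left out, and none with the GC and length trend removed.

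Of 15 node and adhesion genes, all tested, 3 rose and none fell (20%, against 8.81% called and 6.10% called higher among all genes), with a median of 0.07. Cntnap1, which encodes Caspr of the paranode and whose partner on the glial side is neurofascin, had 9.04, 8.94, 8.83 and 8.88 in plain water and 9.50, 8.48, 9.33 and 9.59 in aspartame 1 to 4, a difference of 0.55 ± 0.09 (limma adjusted p = 0.00980). Cntn2, encoding the partner of Caspr2 at the juxtaparanode, rose by 0.50 ± 0.11 (limma adjusted p = 0.0196), and Bcan, encoding the matrix proteoglycan brevican, by 0.57 ± 0.11 (limma adjusted p = 0.0136). Cntn1, the other paranodal partner of Caspr, was level at -0.004. The list had 1 call without water 3 and 1 with the GC and length trend removed, and 5 without aspartame 3. Aspartame 2 was below the plain water mean in all 11 called genes of the 3 lists and the lowest of the 8 libraries in 10, and over all 8 libraries none of the 57 tested genes of these lists was called by limma or had an unadjusted p under 0.05.

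**Figure D5:**
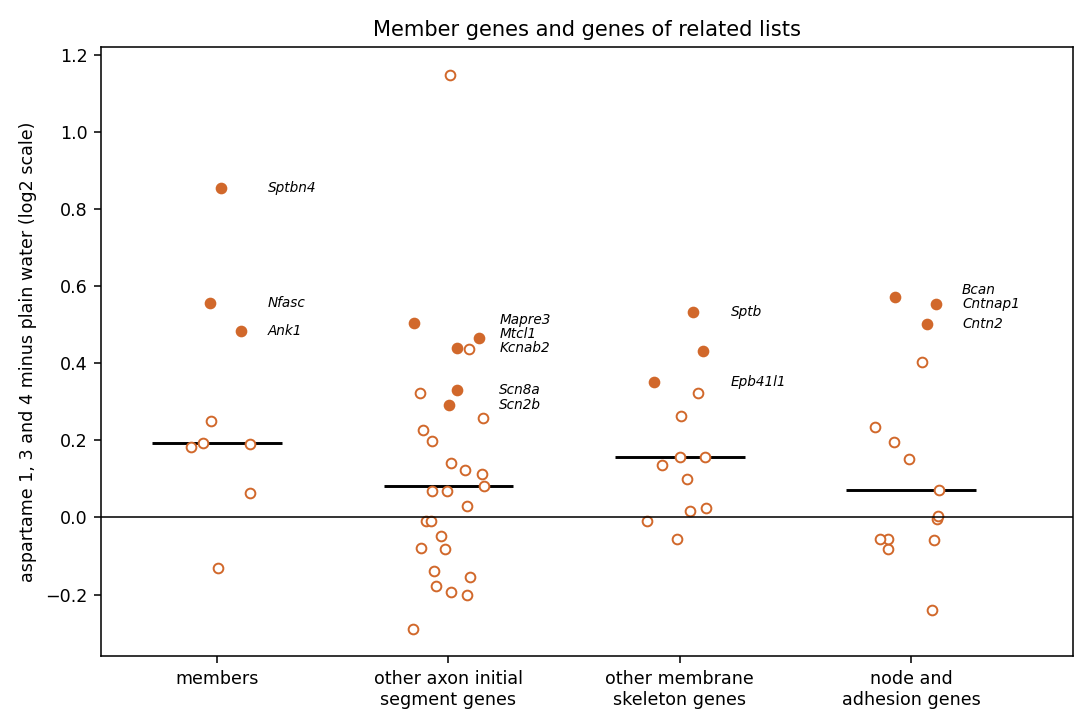
Difference without aspartame 2 (y axis, log2 scale) for the 9 members and for the tested genes of 3 related lists, 1 point per gene, with filled points at an adjusted p under 0.05 a black line at each median, and names beside the called genes described in the text. The medians are 0.19, 0.08, 0.16 and 0.07 from left to right, and every filled point is above 0.

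Profiles over the 8 libraries were compared by the root mean square (RMS) difference after each gene was centered on its own mean, a measure on the log2 scale that favors genes of like spread. Among the members, the nearest pairs were Ank2 and Sptbn1 (0.05), Sptan1 and Sptbn1 (0.06) and Ank1 and Nfasc (0.07). Of the 12852 other genes tested, the nearest to Nfasc was its paranodal counterpart Cntnap1 (0.04), followed by Wdtc1 and Setd1a (each 0.04). Since differences from plain water went with GC content over all genes, genes of like GC content can also lie near each other. The median GC content was 56.2% for Nfasc, 56.1% for Cntnap1 and 56.4% for Ank1, and its part in the likeness was not tested. The nearest to Sptbn4 were Ptpn23 (0.06), Aatk (0.07) and Plec (0.08), the last encoding the cytoskeletal linker plectin. For Ank3 they were Hjurp, Gmeb1 (each 0.03) and S1pr5 (0.05), for Ank2 they included Herc2 and D630045J12Rik (each 0.04), and for Sptan1 they were Rpusd3 (0.03), Upf3a (0.04) and Pde4dip (0.04).

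Markers of the cell types in the dissection moved with part of these results. In bulk tissue, more cells of a type and more RNA per cell cannot be told apart. Of 6 oligodendrocyte markers, 1 was called without aspartame 2, Mbp of the myelin sheath at 0.62 ± 0.16 (limma adjusted p = 0.0398), while Mog (-0.02), for example, was not, and the mean of the 6 spanned 8.81 to 9.15 in plain water and 8.76 to 9.69 in the aspartame group, with its maximum in aspartame 1. Of 6 neuronal markers Rbfox3 rose (0.37 ± 0.10, limma adjusted p = 0.0371) and Stmn2 fell (-0.26 ± 0.07, limma adjusted p = 0.0448), and their mean spanned 10.52 to 10.66 in plain water and 10.51 to 10.79 in the aspartame group. The 5 markers of striatal projection neurons, which neighbor the amygdala, had a median difference of 0.54 with none called, and their mean was 6.18 to 6.87 in plain water and 6.40 to 7.55 in the aspartame group. The part of these markers in the differences of Nfasc, Sptbn4 and Ank1 was not tested.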

How the data were processed

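Stranded mRNA libraries from the amygdala were read in pairs on a NovaSeq instrument. Per the submitters' processing notes, the authors used STAR and Salmon on the mm10 (GRCm38) genome. The table's name marks its deposited log2 values as rlog values, a transformation in DESeq2, the package that the authors used; its options are not given in the sources used here. Since no counts were used, the sequencing depth behind each value is unknown.

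The members and lists were chosen with earlier results of these data known. A gene was tested if its mean rlog was at least 3 and its values varied. The test was limma 3.58.1 in R 4.3.3 (empirical Bayes with a mean-variance trend), with Benjamini-Hochberg adjustment over all genes tested and calls at an adjusted p under 0.05, and it was tried on simulated data. The main comparison leaves out aspartame 2, because the study left out 1 aspartame library, and all 8 libraries stand beside it. With 1 library per mouse, p-values measure the spread between the mice in the fit. Those of the main comparison leave out the spread that aspartame 2 adds. Named genes were all 9 members, up to 4 called genes with the smallest p of each related list, and the 3 nearest profiles of 5 members. Mtcl1, the markers and the other list genes given with values were chosen after their values were seen. Some genes that this rule takes are not reported here, although counts and medians include them. GC content, transcript lengths and coordinates are from GENCODE M21 basic transcripts, which matched 99.4% of the genes tested, and promoters are from RefSeq.

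Alternatives were no filter or a minimum mean of 5, no trend, quantile normalization, a median shift, robust moderation, the replicate number as a block (which drops water 2 where aspartame 2 is left out), age as a covariate, splines (5 degrees of freedom each) in GC content and log length subtracted library by library, that step together with the block, and each library left out in turn. Tables and plots were made in Python 3.11.15 with matplotlib 3.10.9, scipy 1.17.1, pandas 2.3.3 and numpy 2.4.6.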

Additional observations from a re-analysis of the deposited data

Results flagged for a closer look

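In the 24 groups of 4 values examined (9 members and 3 within-library differences in each of the 2 groups), 2 had 1 library far from the other 3, where chance gives about 1 in 20. Sptbn1 in water 1 was 12.20 against 12.26 to 12.27 in the other plain water libraries, a gap of 0.881 of the group's range. Ank3 minus Ank2 in aspartame 4 was -2.16 against -1.79 to -1.72 in the other aspartame libraries, a gap of 0.832 of the range. No value of aspartame 2 was set apart by this measure in any member.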

How the results depend on the processing

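Without aspartame 2, the number of members called stayed between 2 and 4 under the 17 alternatives, and between 2 and 3 with each library left out. Sptbn4 and Nfasc were called under all 17, with differences of 0.43 to 1.01 (limma adjusted p up to 0.0439) and 0.31 to 0.63 (limma adjusted p up to 0.0472). Ank1 was not called with the GC and length trend removed (0.18), with that and the block (0.15), or without water 3 or aspartame 4. Over all 8 libraries the count was 0 under every alternative but leaving out aspartame 2, which gave 3, so the range with each library left out was 0 to 3. Signs turned for Sptbn1 with quantile normalization (-0.052 without aspartame 2, -0.10 over all 8), for Cntnap2 without aspartame 3 (-0.0021, in a range of -0.0021 to 0.0996 with each library left out), and over all 8 for Ank2 with quantile normalization (-0.025) and Sptan1 with quantile normalization (-0.0028) and with the GC and length trend removed (-0.023, also with the block); no value of these was called. The within-library shifts with each library left out ranged, without aspartame 2, from 0.58 to 0.83 for Sptbn4 minus Sptbn1, from 0.59 to 0.80 for Nfasc minus Nrcam and from -0.032 to 0.19 for Ank3 minus Ank2; over all 8, from 0.29 to 0.66, from 0.24 to 0.69 and from 0.04 to 0.18. None of the first could pass the test, since 3 against 3 libraries allow no exact p under 0.1 and 4 against 2 none under 0.0667.

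The labels used here link same-numbered libraries only by that number, and whether they share anything else is not known. Without aspartame 2, their deviations correlated at 0.28, 0.31 and -0.01 for numbers 1, 3 and 4. Of these 6 libraries, 4 correlated best with their own number. Over all 8 libraries the correlations were 0.53, 0.15, 0.06 and -0.10 for numbers 1 to 4. The replicate block without aspartame 2 also drops water 2, which has no partner. That fit called 1379 genes and 3 members, against 371 genes and 3 members without water 2 and without the block, and the within-library shifts of 0.64 for Sptbn4 minus Sptbn1 and 0.70 for Nfasc minus Nrcam had adjusted p = 0.375 by exact sign flips over 3 pairs, which allow no p under 0.25. The calls over all genes were 1134, and 222 with age as a covariate, 249 with the GC and length trend removed, 244 with that and the block, 371, 110 and 215 when water 2, 3 or 4 was left out, and 2082 and 274 when aspartame 3 or 4 was. The 5 called initial segment genes became 2 with no filter, 3 with quantile normalization, 9 with the block (0 without water 2 and without the block), and 0 with age as a covariate or the GC and length trend removed. The causes were not tested.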
